A study of Cynoglossus semilaevis with 30 samples.

Results

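A set of 3 genes of fuel choice was followed through 30 libraries made from female Cynoglossus semilaevis, the Chinese tongue sole, a flatfish of the sea. The genes were the gene annotated as angiopoietin-related protein 4-like (ncbi-103395967, called angptl4-like here), cpt1b (ncbi-103380127) and pdk4 (ncbi-103394119). They were picked by gene number or symbol from a table of 22292 genes, so the set held 3 of 22292. The choice was made with the differences between size classes in view, so those differences are described for the 3 genes without a test. Large females and small females were compared, both 1.7 years old, in brain, pituitary gland, liver, gonad and muscle. Each class had 6 fish, the RNA of 2 fish was pooled into each library, and each of the 10 groups had 3 libraries. The labels name no other treatment, strain or allele, and a library stands for a pool and not for 1 fish.

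In vertebrates, ANGPTL4 is a secreted protein that inhibits lipoprotein lipase, the enzyme that releases fatty acids from circulating triglycerides. CPT1 enzymes load long-chain fatty acids onto carnitine for entry into mitochondria, and the CPT1B form is the one typical of mammalian muscle. PDK4 is a kinase that phosphorylates and shuts off the pyruvate dehydrogenase complex, which otherwise feeds carbohydrate carbon into the citric acid cycle. In mammals all 3 genes are targets of the fatty acid sensing receptors of the PPAR family and are known to be induced by fasting.

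The libraries held between 6130667 and 10504899 estimated counts. Each tissue carried its own markers, with 0 of the brain, pituitary, liver and ovary markers at 0 in the matching tissue, the last read in gonad, and 1 of 7 fast and 0 of 9 slow muscle markers at 0 in muscle. The pairs of libraries of small pituitary, large gonad and small muscle were nearly alike, with a chi-square per gene of 1.69 to 2.51, against 5.41 or more between the libraries of large pituitary, small gonad and large muscle. Nothing in the labels says whether they are separate pools, so p-values measure the spread between these libraries. For the comparison of size classes, counts of calls in these tissues are also given with the 3 libraries summed to 1. The tests between tissues were not repeated with the sums and count these libraries as 3. The second large pituitary library stood apart, with fast muscle markers summing to 431 FPKM (fragments per kilobase of transcript, scaled to the library total), against 4.50 to 6.05 FPKM in the other libraries of large pituitary. Liver libraries held very different amounts of exocrine pancreas RNA: its 3 markers summed to 51800, 23100 and 71700 FPKM in large females and 5400, 14600 and 32400 FPKM in small females. Scaling to plain library totals in place of TMM (edgeR's trimmed mean of M-values) moved the median log2 difference of all genes by -0.75 in liver, 0.30 in gonad and -0.14 in brain, and by 0.05 or less in pituitary and muscle. FPKM carries the library-total scaling, so FPKM in liver and gonad is read below beside the TMM-scaled difference.

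In mean FPKM the 3 genes had different home tissues. Angptl4-like was highest in liver, with 141 ± 116 FPKM (SD, n = 6 libraries of both classes), followed by muscle with 15.5 ± 10.1, brain with 14.4 ± 13.4, pituitary with 10.8 ± 4.03 and gonad with 0.332 ± 0.141 FPKM. Cpt1b was highest in muscle, with 18.1 ± 9.83 FPKM, then liver with 2.58 ± 1.76, brain with 0.952 ± 0.232, pituitary with 0.685 ± 0.205 and gonad with 0.333 ± 0.0776 FPKM. Pdk4 was highest in pituitary, with 19.2 ± 4.73 FPKM, then brain with 10.4 ± 1.99, muscle with 5.43 ± 2.70, liver with 3.77 ± 1.39 and gonad with 2.93 ± 1.29 FPKM. Of the 3, pdk4 covered the narrowest range of tissue means and angptl4-like the widest. In bulk tissue, more cells that express a gene and more RNA per cell cannot be told apart.

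**Figure D1:**
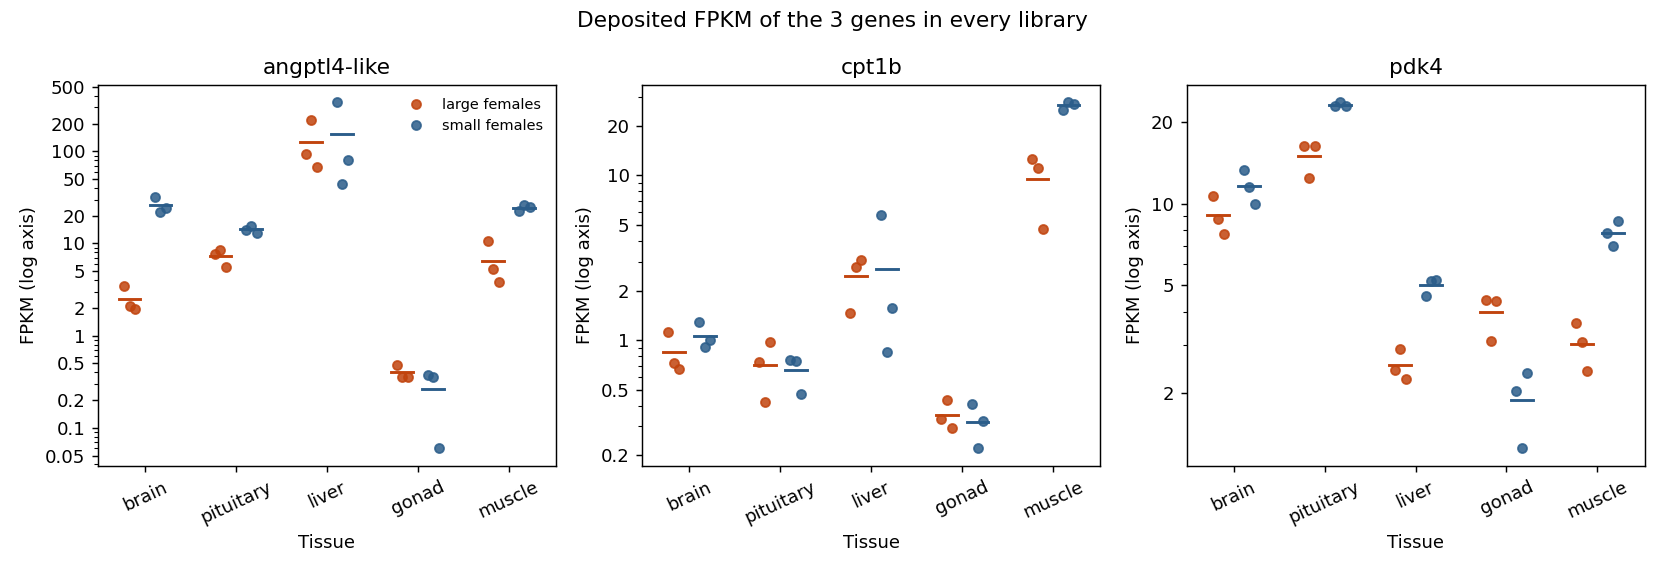
FPKM (log axis) of angptl4-like, cpt1b and pdk4 in the 5 tissues; points are the 3 libraries of a group and bars their means, with large females left of small females. In muscle all 3 large libraries lie below all 3 small libraries for each gene, and in gonad pdk4 lies the other way round. On the TMM scale 21.6% of genes fitted in muscle had all large below all small, and 23.9% in gonad had all large above.

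Neighbours in these orders were compared with edgeR's quasi-likelihood F test over all 30 libraries, averaged over both classes and adjusted by Benjamini-Hochberg over all genes. With 6 fish per class and 2 per library, the tissues drew on the same fish, and this fit had no term for fish or pool. Deviations of same-numbered libraries of different tissues had a median Pearson's r of 0.02 in large and 0.01 in small females. Of the 19511 genes fitted, 63.2% passed the threshold of 0.05 between liver and muscle, 74.8% between brain and muscle, 60.2% between brain and pituitary, 84.3% between pituitary and gonad, 69.2% between brain and liver and 78.1% between liver and gonad, so a pass was the usual outcome. For angptl4-like, liver exceeded muscle by a log2 difference of 3.52 ± 0.35 (SE, adjusted p = 1.16e-09 in edgeR). Muscle exceeded brain by 2.58 ± 0.36, a step that shrank to 0.64 with library totals. In mean FPKM, muscle was above brain in large females, 6.51 against 2.5, but below it in small females, 24.4 against 26.2. Brain and pituitary differed by -0.41 ± 0.35. In large females alone, brain was the lower of these 2 tissues, by a log2 difference of -1.63 ± 0.39. These steps with brain draw on the low level in large brain, which was in view when the gene was chosen. They are given without a test. Cpt1b was higher in muscle than in liver by 2.50 ± 0.28 (adjusted p = 1.03e-08 in edgeR) and higher in liver than in brain by 3.48 ± 0.33 (adjusted p = 3.72e-10 in edgeR). The step between liver and brain was 1.44 ± 0.34 (adjusted p = 0.000295 in edgeR) with library totals, which moved the brain minus liver median of all genes by 1.96. Its levels in brain and pituitary (0.36 ± 0.38, adjusted p = 0.439 in edgeR) and in pituitary and gonad (0.78 ± 0.43, adjusted p = 0.093 in edgeR) did not differ past the threshold.

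For pdk4 the order of the tissues depended on the scaling. Pituitary exceeded brain by a log2 difference of 0.95 ± 0.14 (adjusted p = 2.06e-06 in edgeR). Brain had the higher FPKM, 10.4 against 5.43 in muscle, but the TMM-scaled log2 difference of brain minus muscle was -0.86 ± 0.15 (adjusted p = 1.01e-05 in edgeR), and it was 1.07 ± 0.16 with library totals. For that pair of tissues the change of scaling moved the median of all genes by 1.89, more than the pdk4 difference itself. Pituitary and muscle were not neighbours in the FPKM order, and no test between them is given for pdk4. With TMM the step from pituitary to brain (0.95) and that from brain to muscle (-0.86) nearly cancel, so pituitary had no clear lead over muscle on that scale. Between pituitary and muscle the change of scaling moved the median of all genes by 1.79, so the top place of pituitary is given for FPKM only. Muscle and liver did not differ past the threshold (0.33 ± 0.15, adjusted p = 0.0625 in edgeR), and the sign depended on the class, with -0.70 ± 0.24 in large females alone and 0.84 ± 0.21 in small females alone. Liver exceeded gonad by 2.09 ± 0.16 (adjusted p = 2.76e-12 in edgeR) with TMM but by 0.38 ± 0.17 (adjusted p = 0.0474 in edgeR) with library totals, and the FPKM ranges overlap. The change of scaling moved the median of all genes by -1.54 for that pair. In large females alone the mean FPKM of pdk4 was lower in liver than in gonad, 2.53 against 3.98.

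Angptl4-like was lower in large than in small females in brain, pituitary and muscle. In brain it had 3.47, 2.09 and 1.93 FPKM in the 3 large libraries, against 32.2, 22.2 and 24.2 FPKM in the 3 small libraries. The groups lay far apart, with every small library several-fold above the highest large one. Of all genes fitted in brain, 6.01% had all 3 large below all 3 small libraries in TMM-scaled values. The TMM-scaled log2 fold change, large minus small, was -3.25 ± 0.26 (SE, n = 3 and 3), or 0.105 times the level of small females. It stayed between -3.53 and -3.07 when any 1 library was left out. Since the transcript is most abundant in liver, liver markers were read beside it. They summed to 4370, 1590 and 1800 FPKM in large brain and 3850, 3200 and 3060 FPKM in small brain, so the sums overlapped. Most of each sum came from the markers apoa1 and tfa, with means of 1350 and 1200 FPKM in large brain. The sums therefore say little about the other markers. The 10 tested had a median log2 fold change of -1.18, with no marker past the threshold in edgeR. Only 2 of 16878 genes passed it in brain, so this test could not tell whether liver RNA differed. Every marker but serpinc1 had the lower mean FPKM in large brain. The ranges overlapped for all but the fibrinogen gene fgb, with 3.36 to 10.7 FPKM in large brain and 27.9 to 34.6 FPKM in small brain. Serpinc1 had 0.380 to 2.42 FPKM in large brain and 0.470 to 2.12 FPKM in small brain. In small females the 11 liver markers reached between 0.152% and 8.08% of their liver mean in brain (median 0.331%), and angptl4-like reached 16.9% of its own. In large females the markers reached between 0.0217% and 6.94% (median 0.118%), and angptl4-like, at 1.98%, lay within that range. The liver means of angptl4-like rest on widely spread libraries, from 44.1 to 341 FPKM in small females. Other marker sums also separated the brain classes. Brain markers had 4910 to 6760 FPKM in large and 3010 to 4000 FPKM in small brain. Ovary markers had 14.0 to 75.2 and 3.74 to 11.1 FPKM in the same order, pituitary markers 12.1 to 19.8 and 22.6 to 44.1 FPKM. Exocrine pancreas markers had 7.26 to 10.9 and 12.1 to 94.4 FPKM. Adipocyte, blood and muscle markers overlapped. The part of such RNA, liver RNA included, in the brain values of angptl4-like was not tested.

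In pituitary, angptl4-like had 7.67, 8.60 and 5.55 FPKM in large females and 14.1, 15.6 and 13.0 FPKM in small females. Again no large library reached the lowest small one, as for 15.3% of genes fitted in pituitary on the TMM scale. Its log2 fold change was -1.02 ± 0.18, and -1.16 ± 0.17 without the second large library. Liver markers in pituitary summed to 86.8, 406 and 114 FPKM in large females against 181, 194 and 200 FPKM in small females, with 3 of 10 tested markers lower in large females, and the part of this in the angptl4-like difference was not tested. Other markers also separated the pituitary classes: brain markers summed to 398, 568 and 408 FPKM in large females and 278, 269 and 269 FPKM in small females (1 of 2 tested higher), and blood markers to 9.45, 4.99 and 6.44 FPKM in large females and 16.6, 14.2 and 13.8 FPKM in small females (1 of 2 tested lower). Their part in the pituitary values of angptl4-like and pdk4 was not tested.

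In muscle, angptl4-like had 10.5, 5.22 and 3.80 FPKM in large females and 22.4, 26.0 and 24.8 FPKM in small females. The small libraries were tightly grouped, the large ones more widely spread, and the groups did not overlap, as for 21.6% of genes fitted in muscle on the TMM scale. On the log2 scale the fold change was -1.93 ± 0.32, and -2.50 ± 0.18 without the first large library. That library also held more liver marker RNA, 1960 FPKM in sum, than the other large muscle libraries with 169 and 147 FPKM, while small muscle had 1600, 1660 and 1660 FPKM. In small muscle the liver markers reached between 1.70% and 2.80% of their liver mean, and angptl4-like reached 15.8%. Large muscle had a median of 0.985% for the markers and 5.15% for angptl4-like.

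In liver, where the gene is most abundant, no such difference was seen. It had 92.6, 218 and 67.9 FPKM in large females and 341, 44.1 and 79.6 FPKM in small females. The classes overlapped throughout, and the spread within each class exceeded the gap between the means, 126 ± 80.7 FPKM in large females and 155 ± 162 FPKM in small females. The fitted log2 fold change was 0.41 ± 0.63 with TMM and -0.30 with library totals, so its sign depended on the scaling. The TMM-scaled value became 1.57 ± 0.46 without the first small library, which held the highest angptl4-like value and, at 5400 FPKM, the lowest sum of pancreas markers. The second large library, next in angptl4-like, had the lowest pancreas sum of the large class. The second small library, lowest of all in angptl4-like at 44.1 FPKM, had a pancreas sum of 14600 FPKM, below every large library. The part of pancreas RNA in this spread was not tested. In gonad the gene was near the limit of detection, with 0.480, 0.360 and 0.360 FPKM in large females and 0.370, 0.360 and 0.0600 FPKM in small females. These rest on 19 and 12 estimated counts per class, too few to be fitted.

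Cpt1b differed between the classes in muscle, its home tissue. It had 12.7, 11.1 and 4.73 FPKM in large females and 25.2, 27.9 and 27.0 FPKM in small females. All large libraries lay below all small ones, as for 21.6% of genes fitted in muscle on the TMM scale, and the third large library was lowest. This gave a log2 fold change of -1.55 ± 0.27, or 0.341 times the level of small females, and it stayed between -1.85 and -1.31 when any 1 library was left out.

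Outside muscle, cpt1b was scarce and showed no clear direction. Liver had 1.47, 2.79 and 3.08 FPKM in large females and 5.72, 0.840 and 1.57 FPKM in small females. As with angptl4-like, the first small library was the highest and the second small library the lowest of the 6. Their log2 fold change was 0.65 ± 0.59 with TMM, and 1.70 ± 0.47 without that first small library. With library totals it was -0.15, so the sign depended on the scaling. Brain had 1.12, 0.730 and 0.670 FPKM in large females and 1.28, 0.910 and 1.0 FPKM in small females, a log2 fold change of -0.20 ± 0.37. In pituitary the values were 0.740, 0.420 and 0.970 FPKM in large females and 0.760, 0.750 and 0.470 FPKM in small females, with a log2 fold change of 0.07 ± 0.42. The classes overlapped in both. Gonad had 28 estimated counts over the large and 25 over the small libraries and was not fitted.

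Pdk4 had enough counts to be fitted in all 5 tissues, and its fitted difference between the classes did not have 1 sign. In muscle it had 3.62, 3.08 and 2.41 FPKM in large females and 7.80, 6.99 and 8.67 FPKM in small females. The classes did not overlap, as for 21.6% of genes fitted in muscle with large below small on the TMM scale. The log2 fold change was -1.40 ± 0.22, or 0.380 times the level of small females. In pituitary, where pdk4 is highest in FPKM, it had 16.4, 12.4 and 16.3 FPKM in large females and 23.0, 23.8 and 23.0 FPKM in small females. The classes did not overlap there either, as for 15.3% of genes fitted in pituitary with large below small on the TMM scale. The log2 fold change in pituitary was -0.67 ± 0.13, and -0.56 ± 0.10 without the second large library, which had the lowest pdk4 value.

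In gonad the order turned round. Pdk4 had 4.43, 3.12 and 4.38 FPKM in large females and 2.03, 1.25 and 2.37 FPKM in small females, so every large library was above every small one, as for 23.9% of genes fitted in gonad on the TMM scale. The log2 fold change was 0.77 ± 0.28 with TMM, short of the threshold and below the 1.08 of the mean FPKM. Pdk4 rested there on 218 estimated counts over the large and 104 over the small libraries. In liver it had 2.43, 2.92 and 2.25 FPKM in large females and 4.56, 5.18 and 5.25 FPKM in small females. In FPKM these do not overlap, as for 36.2% of genes fitted in liver with large below small, yet the TMM-scaled log2 fold change was -0.20 ± 0.28 and the TMM-scaled values overlap. With library totals it was -0.98 ± 0.41, close to the -0.75 by which that scaling moved the median of all genes in liver. In brain, pdk4 had 10.7, 8.81 and 7.76 FPKM in large females and 13.4, 11.5 and 10 FPKM in small females, which overlap, with a log2 fold change of -0.21 ± 0.18.

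**Figure D2:**
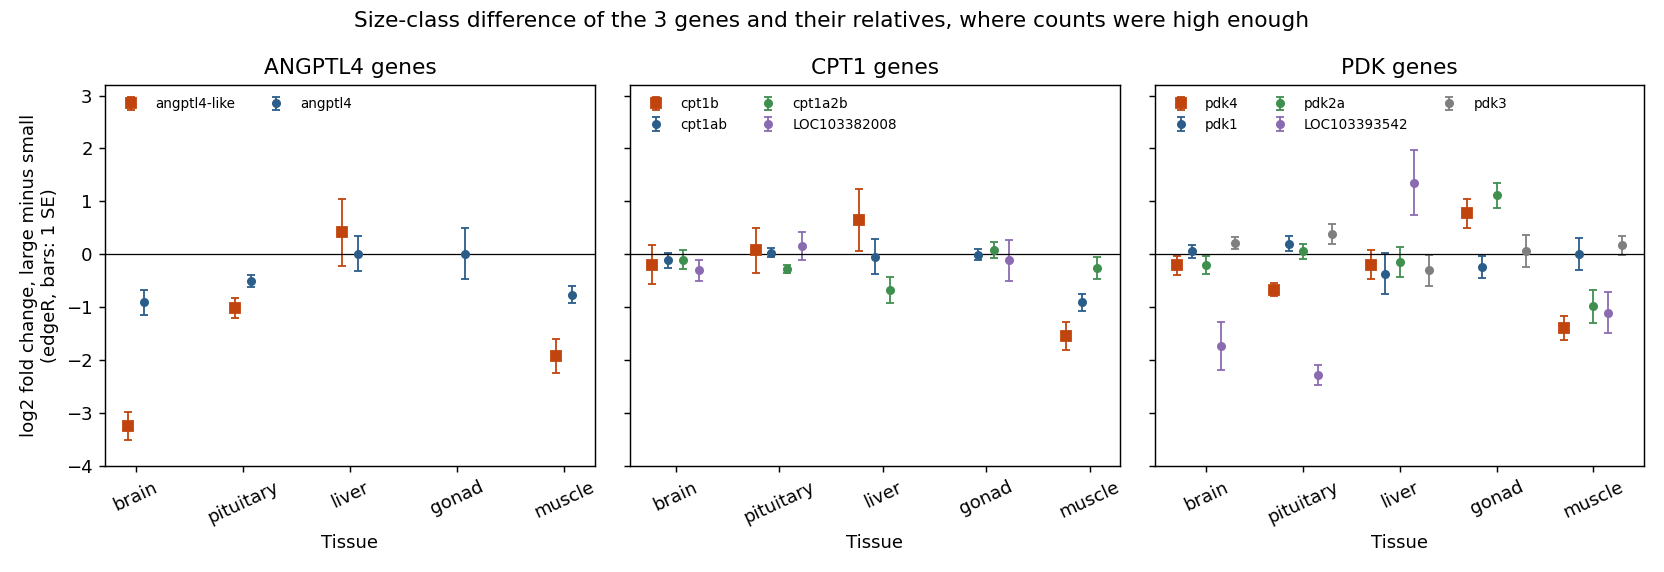
Log2 fold change, large minus small females (edgeR, TMM), with bars of 1 SE, for angptl4-like, cpt1b and pdk4 (squares) and their relatives (circles) by tissue, for genes with enough counts to be fitted. All 3 squares lie below 0 in muscle, where they range from -1.93 to -1.40, while pdk4 is at 0.77 in gonad. They lie below 0 in brain too, with angptl4-like at -3.25, cpt1b at -0.20 and pdk4 at -0.21.

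Read together, muscle was the tissue in which each of the 3 genes had all large libraries below all small ones, as for 21.6% of genes fitted there on the TMM scale. In brain all 3 log2 fold changes were below 0 as well, but cpt1b (-0.20) and pdk4 (-0.21) overlapped between the classes. Of the 3 genes fitted, 3 were past the threshold and lower in muscle, where 10.4% of the 13301 genes fitted were past it in that direction. In pituitary 2 of 3 were (angptl4-like and pdk4), where 3.40% of 15668 genes were, and in brain 1 of 3 (angptl4-like), where 0.00592% of 16878 genes were, which is that single gene. In liver 0 of 3 were past the threshold in either direction in edgeR, 0 at an unadjusted p under 0.05 and 0 in DESeq2, where 1.31% of 11878 genes were past it (0.581% lower and 0.732% higher in large females). In gonad the 1 gene fitted, pdk4, was not past it in edgeR or DESeq2, was so at an unadjusted p under 0.05, and 24.5% of 14123 genes were past it. Because the size contrast chose the genes, nothing is read from these counts. With the 3 nearly alike libraries summed to 1, 0 of the 3 genes were past the threshold in muscle and 0 in pituitary in edgeR, with 3 and 2 at an unadjusted p under 0.05. No gene in either tissue was called in that fit. The brain count fell to 0 when any of the second large, the third large, the first small and the third small libraries was left out. The pituitary count fell to 0 without any 1 of the small libraries.

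Other cell types also moved in muscle. Adipocyte markers summed to 420, 689 and 395 FPKM in large females and 277, 287 and 289 FPKM in small females, with 2 of 5 tested markers higher in large females (the lipid droplet gene cidec, with a log2 fold change of 1.91, and the fatty acid binding gene fabp4b, with 1.42). The other tested adipocyte genes had log2 fold changes of -0.31 (fabp4a), -0.31 (cfd) and -1.03 (lipea), short of the threshold, and the median of the 5 was -0.31. Blood markers summed to 23.5, 32.9 and 20.7 FPKM in large females against 77.5, 73.4 and 78.9 FPKM in small females, with 2 of 2 tested lower. Slow muscle markers, the fibres richest in fat oxidation, summed to 378, 443 and 643 FPKM in large females and 385, 386 and 392 FPKM in small females, and their 9 tested genes had a median log2 fold change of 0.31. Ovary markers had 273 to 650 FPKM in large and 127 to 141 FPKM in small muscle. Brain markers had 48.9 to 70.9 and 76.8 to 84.6 FPKM in the same order, pituitary markers 1.32 to 1.93 and 2.41 to 3.73 FPKM. Exocrine pancreas markers had 11.7 to 55.8 and 74.6 to 81.3 FPKM. The 11 liver markers tested had a median log2 fold change of -1.38, with 1 lower in large females. The part of adipocytes, blood, liver RNA and these other tissues in the muscle values of the 3 genes was not tested.

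Each gene has near relatives in the genome, and shares within a family do not depend on how libraries are scaled. A second gene is annotated as angiopoietin-related protein 4 (symbol angptl4, ncbi-103395873), and reads that both genes could yield may have been divided between them. Angptl4-like made up 90.7% ± 4.24 (SD, n = 3) of the FPKM of the pair in large liver and 84.7% ± 7.45 in small liver. In brain its share was 8.86% ± 1.92 in large females and 32.3% ± 1.92 in small females, in pituitary 9.44% ± 0.550 and 13.0% ± 1.12, and in muscle 34.4% ± 14.3 and 55.4% ± 3.42, in the same order. The relative was thus the main form in brain and pituitary, and angptl4-like the main form in liver.

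The relative angptl4 fell in muscle and pituitary and did not pass the threshold in brain, and its difference from angptl4-like in size was not tested. It had 36.6, 27.6 and 15.8 FPKM in large brain and 64.4, 51.5 and 48.1 FPKM in small brain, a log2 fold change of -0.91 ± 0.24 (adjusted p = 0.556 in edgeR) that misses the threshold. In muscle it fell, with 10.1, 14.6 and 10.8 FPKM in large females and 21, 20.4 and 17.7 FPKM in small females (-0.77 ± 0.16, adjusted p = 0.00949 in edgeR). In pituitary it fell to 69.4 ± 11.6 FPKM in large females against 95.6 ± 1.91 FPKM in small females (-0.51 ± 0.12, adjusted p = 0.0391 in edgeR), a call lost under 8 of 12 alternatives. In liver and gonad its log2 fold change was 0.01 in each, with an SE of 0.33 and 0.48.

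**Figure D3:**
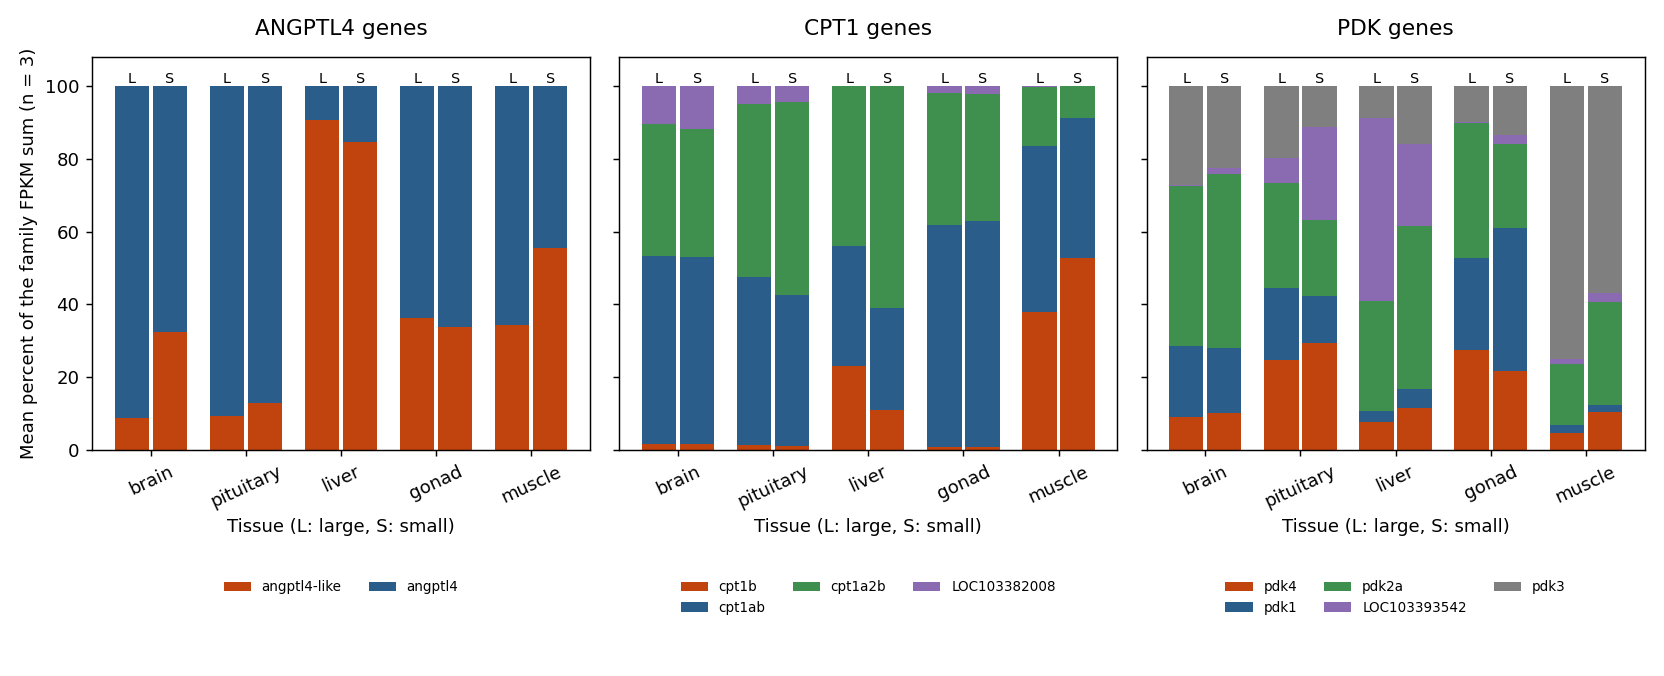
Mean percent of the summed FPKM of each family contributed by each gene (n = 3 libraries), large females left of small females in every tissue. Angptl4-like fills 90.7% and 84.7% of its pair in liver, and cpt1b 38.0% and 52.6% of its family in muscle.

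Of the 4 CPT1 genes, cpt1b carried 38.0% ± 9.42 of the family FPKM in large muscle and 52.6% ± 2.16 in small muscle, 23.2% ± 7.43 in large liver and 10.9% ± 6.46 in small liver, and under 2% in the other tissues. The rest came mostly from cpt1ab and cpt1a2b, genes of the CPT1A group typical of liver in mammals. Cpt1ab fell in muscle as well, to 10.7 ± 1.65 FPKM in large females against 19.6 ± 1.06 FPKM in small females (-0.91 ± 0.16, adjusted p = 0.00496 in edgeR). Cpt1a2b in muscle had 3.73 ± 0.886 and 4.37 ± 0.847 FPKM in the same order (-0.27 ± 0.21, adjusted p = 0.383 in edgeR). Summed over the family, muscle had 24.0 ± 6.05 FPKM in large females and 50.7 ± 0.787 FPKM in small females. Outside muscle the smallest adjusted p of a CPT1 relative in edgeR was 0.078, for cpt1a2b in pituitary (-0.28 ± 0.08), which misses the threshold. Cpt2, the next enzyme of the shuttle, had 6.89 FPKM in large and 5.76 FPKM in small muscle (0.20 ± 0.19, adjusted p = 0.475 in edgeR).

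Pdk4 was 1 of 5 kinase genes and never the main one in muscle, where pdk3 made up 74.9% ± 10.2 of the family FPKM in large females and 57.0% ± 0.721 in small females. Pdk4 supplied 4.71% ± 0.976 there in large females and 10.5% ± 0.748 in small females. Its share was highest in pituitary, 24.8% ± 5.76 in large females and 29.4% ± 1.30 in small females, and in gonad, 27.5% ± 2.50 and 21.6% ± 6.26 in the same order. The relatives did not move as a block. Pdk2a rose in gonad, to 5.35 ± 0.929 FPKM in large females against 2.0 ± 0.393 FPKM in small females (1.11 ± 0.24, adjusted p = 0.0104 in edgeR). In muscle it had 10.9 ± 5.90 FPKM in large females and 20.9 ± 0.946 FPKM in small females (-0.99 ± 0.32, adjusted p = 0.0516 in edgeR), just short of the threshold. The gene LOC103393542, annotated as similar to PDK2, fell in pituitary to 4.21 ± 0.958 FPKM in large females against 20.0 ± 0.340 FPKM in small females (-2.29 ± 0.19, adjusted p = 0.000945 in edgeR). For pdk1 and pdk3 the smallest adjusted p over the tissues was 0.263 in edgeR (pdk3 in pituitary), and their log2 fold changes in muscle were 0.00 ± 0.31 and 0.17 ± 0.18. The opposing phosphatase pdp1 fell in pituitary to 13.8 ± 0.422 FPKM in large females against 22.2 ± 0.202 FPKM in small females (-0.73 ± 0.09, adjusted p = 0.0033 in edgeR), and in liver to 3.18 ± 1.56 against 29.0 ± 23.7 FPKM (-2.41 ± 0.47, adjusted p = 0.0476 in edgeR).

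The wider pathway was read in 8 lists with 111 genes besides the 3: the lipoprotein lipase system, other angiopoietin-like genes, the carnitine shuttle, beta-oxidation, pyruvate dehydrogenase and its regulators, PPAR receptors with their partners, PPAR-responsive genes, and malonyl-CoA with fatty acid synthesis. In muscle 20 of the 91 list genes tested fell in large females and 5 rose, and their median log2 fold change was -0.37, against 0.03 for all genes. In that tissue 10.4% of all genes fell and 13.1% rose. Adjusted p-values in this part are from edgeR, over all genes of the tissue.

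Among genes of the lipase system in muscle, 2 of 11 fell and 2 rose. Lipoprotein lipase itself (lpl), the enzyme that ANGPTL4 inhibits, fell to 10.1 ± 0.773 FPKM in large females against 20.8 ± 0.217 FPKM in small females (-1.06 ± 0.16, adjusted p = 0.00327 in edgeR). The endothelial lipase-like gene LOC103396997 (1.94 ± 0.44) and the lipoprotein receptor gene vldlr (1.02 ± 0.28) rose. Of the carnitine shuttle genes, 2 of 8 fell, cpt1ab above and the peroxisomal octanoyltransferase gene crot (-0.96 ± 0.22, adjusted p = 0.0132 in edgeR). Of the beta-oxidation genes, 2 of 16 fell: acadvl, which starts the oxidation of very long chains (-0.93 ± 0.17), and the thiolase gene acaa2 (-0.69 ± 0.17).

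Of the pyruvate dehydrogenase list, the complex that PDK4 inhibits with its regulators, 4 of 15 genes fell in muscle and 11 did not pass the threshold. Those that fell were the subunit genes dlat (-0.93 ± 0.16, adjusted p = 0.00482 in edgeR), pdha1a (-0.51 ± 0.16), pdhb (-0.53 ± 0.17) and dld (-0.52 ± 0.16). Malonyl-CoA is the inhibitor of CPT1, and both the gene that removes it and those that make it fell. Mlycd, malonyl-CoA decarboxylase, fell to 25.9 ± 5.37 FPKM in large females against 55.8 ± 0.680 FPKM in small females (-1.15 ± 0.16, adjusted p = 0.00247 in edgeR). The acetyl-CoA carboxylase genes LOC103397308 (-1.84 ± 0.24) and LOC103394780 (-1.25 ± 0.38) fell, and the desaturase gene scd rose (1.49 ± 0.36). The calls of dld and LOC103394780 were each lost under 8 of 12 alternatives, and that of pdha1a under 6.

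PPAR receptor genes themselves did not pass the threshold in muscle. Their log2 fold changes there were 0.06 ± 0.22 for ppara, -0.45 ± 0.32 for pparab, -0.20 ± 0.28 for ppard and -0.36 ± 0.43 for pparg. The coactivator gene ppargc1a, a regulator of mitochondrial genes, fell (-2.94 ± 0.65, adjusted p = 0.0119 in edgeR) from a low base, with 0.130 FPKM in large females and 0.910 FPKM in small females. Its partners lpin1a (-2.41 ± 0.36) and lpin1 (-0.88 ± 0.24) and the RXR gene LOC103388487 (-0.56 ± 0.16) also fell. Of the PPAR-responsive genes 3 of 15 fell and 2 rose. The thioesterase gene acot11b (-1.45 ± 0.24), the uncoupling protein gene LOC103395318 (-0.78 ± 0.22) and the peroxisomal thiolase gene acaa1 (-0.59 ± 0.17) fell. The lipid droplet gene LOC103383647, perilipin-2-like, rose to 29.8 ± 17.2 FPKM in large females against 8.56 ± 2.33 FPKM in small females (1.70 ± 0.30, adjusted p = 0.00515 in edgeR). With the small muscle libraries summed to 1, 0 list genes were past the threshold in edgeR and 15 at an unadjusted p under 0.05, while DESeq2 on the separate libraries called 25. Without any 1 of the small muscle libraries, 10 to 12 of the list genes were called.

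**Figure D4:**
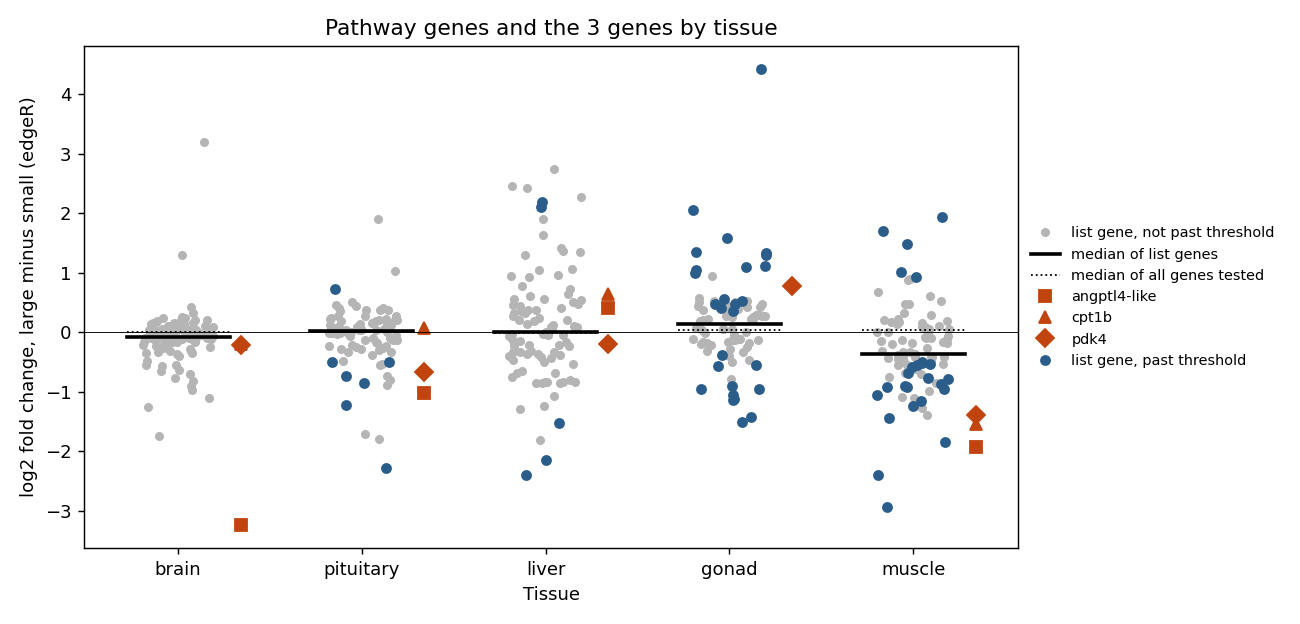
Log2 fold change, large minus small females (edgeR), of list genes by tissue, with blue points past the threshold, a solid bar at the list median and a dotted bar at the median of all genes; red symbols are angptl4-like, cpt1b and pdk4. In muscle the list median is -0.37 against 0.03 for all genes, and in brain angptl4-like at -3.25 lies below every list gene.

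The other tissues gave fewer calls or mixed directions. In pituitary 6 of 90 list genes fell and 1 rose, where 3.40% of all genes fell and 2.42% rose. Besides angptl4, LOC103393542 and pdp1 these were the lipase gene lpl2a (-0.85 ± 0.17), the thioredoxin inhibitor gene txnip (-0.51 ± 0.09) and the carnitine transporter-like gene LOC103394784 (-1.23 ± 0.29), while rxra, a partner of PPARs, rose (0.72 ± 0.15). The calls of rxra and LOC103394784 were each lost under 7 of 12 alternatives, that of lpl2a under 5 and that of txnip under 4. Those of LOC103393542 and pdp1 were each lost under 1. The number of list genes called was 23 without the second large library and 2 without any 1 of the small ones. In brain 0 of 96 list genes passed in edgeR, with 9 at an unadjusted p under 0.05 and 3 called by DESeq2. There lpl had a log2 fold change of -1.10 ± 0.22 (adjusted p = 0.435 in edgeR), which misses the threshold.

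In liver 3 of 91 list genes fell and 2 rose. The PPAR gene ppard fell to 2.08 ± 0.342 FPKM in large females against 10.3 ± 1.86 FPKM in small females (-1.53 ± 0.26, adjusted p = 0.0301 in edgeR), beside lpin1a (-2.15 ± 0.42) and pdp1. The desaturase gene scdb (2.11 ± 0.36) and the acetyl-CoA carboxylase gene LOC103394780 (2.19 ± 0.40) rose. Each of these 5 liver calls was lost under 4 of 11 alternatives, and 17 list genes were called without the third small library.

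In gonad 16 of 86 list genes rose and 11 fell, where 10.9% of all genes rose and 13.5% fell. The lipase genes lpl (2.05 ± 0.49) and lpl2a (1.59 ± 0.24) rose, opposite to lpl in muscle, though the difference between these tissues was not tested. Their gonad levels were low. Lpl had 2.48 ± 0.621 FPKM in large and 0.477 ± 0.403 FPKM in small females, and lpl2a 4.02 ± 0.640 and 1.08 ± 0.236 FPKM. The lpl call was lost under 3 of 12 alternatives. The apolipoprotein C-I-like gene LOC103389013 rose to 33.3 ± 2.11 FPKM in large females against 1.26 ± 0.647 FPKM in small females (4.43 ± 0.33, adjusted p = 0.000152 in edgeR). The beta-oxidation genes hadha (-0.91 ± 0.10) and eci2 (-0.96 ± 0.14) fell and acads (1.33 ± 0.23) rose. The phosphatase gene pdp2 (-0.96 ± 0.19) and crot (-1.14 ± 0.14) fell. With the large gonad libraries summed to 1, 1 list gene was past the threshold in edgeR, and without any 1 of the large libraries 9 or 10 were.

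The genes whose pattern was most like each of the 3 were ranked by Pearson's r on log2(FPKM + 1), among genes reaching a group mean of 5 FPKM or more. Over the 10 group means, which share the libraries and the FPKM scaling, the nearest to angptl4-like were LOC103389427 (r = 0.953), cebpb (0.949), serpinf1 (0.931), pcolcea (0.930) and sult1st6 (0.928). For cpt1b they were hspb9l (0.989), LOC103386005 (0.988), ELN (0.976), asb14b (0.971) and perm1b (0.968), and for pdk4 foxo4 (0.983), vegfa (0.976), golga2 (0.974), cpeb3 (0.974) and kiaa0232 (0.973). Among the 3 genes themselves, r over group means was 0.381 for angptl4-like and cpt1b, 0.139 for angptl4-like and pdk4, and -0.132 for cpt1b and pdk4.

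Within tissues, over the deviations of the 30 libraries from their tissue mean, the relative angptl4 was nearest to angptl4-like (r = 0.781), followed by snrk (0.778), slc7a5 (0.756), the liver marker fgb (0.739) and ptp4a3 (0.714). For cpt1b the nearest were pisd (0.857), klhl40a (0.811), LOC103386005 (0.805), LOC103388929 (0.790) and ubb (0.788). For pdk4 they were vezt (0.862), adss2 (0.859), kiaa0430 (0.853), mnt (0.852) and prnpb (0.850). Among the 3 genes, r was 0.640 for angptl4-like and cpt1b, 0.492 for angptl4-like and pdk4, and 0.484 for cpt1b and pdk4. The 3 genes were chosen with their size differences in view, and these differences are part of the deviations. Nothing is therefore read from the r among the 3. Both the size class and the scaling of the libraries enter these deviations, and their part was not tested.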

How the data were processed

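RNA of brain, pituitary gland, liver, gonad and muscle was extracted with Trizol and sequenced on Illumina libraries, per the labels' protocols. The table deposited by the authors held, per the file headers, FPKM and estimated counts for 22292 genes and 30 libraries; 2% of the estimated counts were not whole and were rounded here. Per the submitters' processing notes edgeR was used; its version, the aligner, the counter and the build were not given in the sources used here, and no coordinates are printed. Of 20373 NCBI gene numbers, 19502 matched the RefSeq gene table, which supplied symbols.

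Large and small females were compared in each tissue with edgeR 4.0.16 in R 4.3.3 (filterByExpr, TMM, quasi-likelihood F test, two-sided, Benjamini-Hochberg, threshold 0.05). The SE is the log2 fold change over the square root of F. Tissues were compared in 1 fit of all 30 libraries, averaged over size classes. The test was checked on simulated data with 200 changed genes. The simulated libraries were drawn independently from shared mean levels, so the check does not cover nearly alike libraries, RNA of other tissues or shifts of scaling. Alternatives were DESeq2 1.42.0, median-of-ratios scaling, library totals, no filter on low counts, a replicate block, leaving out each library, and summing nearly alike libraries. The sums were made for the comparison of size classes only. Figures used matplotlib 3.10.9.

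The 3 genes, the lists and the alternatives were chosen with earlier results of these data known. Named list genes were, per list and tissue, up to 3 genes past the threshold with the smallest p, and a set of receptors, kinases, phosphatases and shuttle genes whatever their p; vldlr, pdhb, acaa1, LOC103388487 and LOC103395318 in muscle were named after their values were seen. For each of the 3 genes the 5 most alike by r were named. 1 gene of the lists is not reported here, although it met this rule.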

Additional observations from a re-analysis of the deposited data

Results flagged for a closer look

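Pdk4 had opposite signs between tissues, without overlap of the classes in TMM-scaled values: the log2 fold change, large minus small females, was 0.77 in gonad, with all 3 large libraries above all 3 small libraries, and -0.67 in pituitary and -1.40 in muscle, with all 3 large libraries below all 3 small libraries. The gonad value of pdk4 was short of the threshold. Its relative pdk2a also had opposite signs, at 1.11 in gonad, past the threshold, and -0.99 in muscle, short of it (adjusted p = 0.0516 in edgeR). The difference between these tissues was not tested for either gene. Among all genes fitted, 23.9% in gonad had all large above all small libraries in TMM-scaled values, and 15.3% in pituitary and 21.6% in muscle had all large below.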

How the results depend on the processing

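Of the 3 genes, the number past the threshold under every setting that keeps the 6 libraries (DESeq2, median-of-ratios scaling, library totals, no filter, replicate block) was the same as reported in brain, pituitary, liver and muscle, and in gonad it became 1 with library totals. Leaving out 1 library gave 0 to 1 in brain, 0 to 2 in pituitary and 0 to 1 in gonad. With nearly alike libraries summed it was 0 in pituitary and 0 in muscle; in those fits 0 genes and 0 list genes were called in either tissue in edgeR, with 907 and 2077 genes at an unadjusted p under 0.05, while DESeq2 was not run on the sums. In gonad the sum left 12 genes and 1 list gene called.

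Counts of calls over all genes and over list genes also moved. Brain had 91 genes and 3 list genes with DESeq2 and 10 genes with the replicate block. Pituitary had 597 and 4 with the block. Liver had 715 and 13 with DESeq2, 1111 and 15 with library totals, 627 and 12 without the filter, and 253 genes with the block. Muscle had 2035 and 16 with library totals. Leaving out 1 library gave ranges of 0 to 3 genes in brain, 129 to 2386 genes and 2 to 23 list genes in pituitary, 17 to 1209 and 0 to 17 in liver, 1134 to 3965 and 9 to 31 in gonad, and 1253 to 3897 and 10 to 34 in muscle. The pituitary count was highest without the second large library and the liver count highest without the third small library and lowest without the first large; the low counts in gonad came from leaving out a large library and those in pituitary and muscle from leaving out a small one.

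With library totals the log2 fold change in liver was -0.98 for pdk4, -0.30 for angptl4-like and -0.15 for cpt1b. Leaving out 1 library gave 0.20 to 1.70 for cpt1b in liver (highest without the first small library), -0.34 to -0.03 for pdk4 in liver, and -2.50 to -1.69 for angptl4-like in muscle (lowest without the first large library). Between tissues, angptl4-like in muscle against brain was 0.64 with library totals and in brain against pituitary -1.63 in large females only; cpt1b in pituitary against gonad passed at 0.87 with DESeq2 and 1.04 with library totals. Pdk4 in brain against muscle turned to 0.00 in large females only and 1.07 with library totals. In muscle against liver it passed at 0.45 with library totals and 0.33 with the block. There it was -0.70 in large females only and 0.84 in small females only, both given without a test. The cause of these changes was not tested.

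Large and small libraries share replicate numbers, but same-numbered libraries did not deviate together in every pair, so the block was not used as pairing. The cpt1b values rest on few estimated counts outside muscle and liver: 48 over the large and 68 over the small libraries in brain, 44 and 38 in pituitary, and 28 and 25 in gonad, which limits what can be seen there.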
